A study of Mus musculus with 24 samples.

Results

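The last interval of an actinomycin D course in wild-type (WT) 32D cells is described here: 2 libraries collected at 9 h of the drug were compared with 2 collected at 6 h, 4 of the 24 libraries of the series, across 16167 expressed genes. 32D is a mouse bone marrow line that needs interleukin-3 (IL-3) to grow. All groups were kept in 10% serum with IL-3 at 10 ng/ml, and all but the 0 h groups had received actinomycin D at 0.05 µg/ml. The study set WT cells beside clones labelled Nat10+/- (KO1 and KO2), each sampled at 0, 3, 6 and 9 h with 2 libraries per genotype and time, and measured polyadenylated RNA. The WT groups carry no Nat10 allele change in the labels, and each clone is a single line. The libraries of a group are called biological replicates with no word on separate cultures, so the p-values measure the spread between those libraries. That spread was small, with a common coefficient of variation of 0.0206 beyond counting error. A very low p-value here is therefore no measure of the spread between separate cultures. The comparison asks which transcripts were still gaining or losing ground late in the course. No group was kept without the drug past 0 h, so hours of drug and hours in culture cannot be told apart.

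Actinomycin D binds DNA and stops RNA polymerases. At low doses it is known to act mainly on RNA polymerase I, which makes ribosomal RNA, while many genes read by RNA polymerase II can still be transcribed. A transcript that is no longer made decays at its own rate, so in a drug course long-lived messages take a growing share of the remaining RNA and short-lived ones a shrinking share. Loss of ribosome production is also a textbook trigger of p53.

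Each of the 4 libraries held between 16057152 and 16865816 gene counts. Levels are in CPM, counts relative to a common library total, scaled by TMM, and changes are log2 values at 9 h against 6 h with their standard error (SE). All of them are relative to the average transcript, and in bulk RNA fewer cells and less RNA per cell cannot be told apart. The added ERCC spike-in RNA gave 414 counts over both 6 h libraries and 455 over both 9 h libraries. Gene counts per spike-in count at 9 h were 0.896 times those at 6 h (95% interval 0.782 to 1.03, counting error only). The 9 h libraries disagreed, with 257 spike-in counts in replicate 1 and 198 in replicate 2 at 16199835 and 16215702 gene counts. The 6 h libraries held 197 and 217 at 16057152 and 16865816 gene counts. Relative to gene counts, replicate 2 of 9 h thus held fewer spike-in counts than either 6 h library. The lower ratio rests on replicate 1 of 9 h, and the interval leaves out this spread between libraries. Of the markers listed for an IL-3-dependent myeloid progenitor, 10 of 13 stood at 5 CPM or more at 6 h and at 9 h. The receptor subunits Csf2rb and Csf2rb2 were at 175 and 173 CPM and at 233 and 233 CPM in the 6 h libraries. Kit was at 0 counts, and Mpo and Cd34 were at a mean of 2.57 and 0.62 CPM at 6 h. The labels name a lymphoblast-type marrow cell, but each of the 6 T cell markers and the B cell markers Pax5 and Ms4a1 were at or near 0, while the B cell genes Cd79a and Cd79b stood at 24.7 and 25 CPM and at 10.4 and 10.4 CPM. The megakaryocyte genes Itga2b (1141 and 1157 CPM) and Pf4 (454 and 426 CPM) were high, and the summed level of the 3 megakaryocyte markers was between 1606 and 1619 CPM at 6 h and between 1366 and 1390 CPM at 9 h. At 6 h and at 9 h, 5 CPM was reached by 4 of 5 macrophage markers, 3 of 5 erythroid markers and 1 of 3 endothelial markers (Pecam1). None of the 7 mast cell and basophil markers reached it. The 4 epithelial markers were at 0.

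Late changes were many and mostly small. At an adjusted p under 0.05 (edgeR's quasi-likelihood test, Benjamini-Hochberg adjustment over all genes, the meaning of "called" here), 2986 genes (18.5%) were higher at 9 h than at 6 h and 3300 (20.4%) were lower. The median called rise was 1.27-fold and the median called fall 1.30-fold. At least a 2-fold change was reached by 293 genes upward (1.81% of those tested) and 219 downward (1.35%). The genes called higher took 17.6% of gene counts at 6 h and 23.4% at 9 h, and the genes called lower went from 62.8% to 55.1%. The split between rises and falls depended on the scale: 47.5% of calls were rises with TMM and 68.8% with library totals alone (4827 rises and 2187 falls). Spike-in totals left the median change of all genes at −0.005 but gave fewer calls, 2787, of which 37.5% were rises (1044 and 1743). For this comparison, the lower counts with spike-in totals below are thus mainly calls lost, with little shift of the scale. Library totals moved the median change of all genes from 0.01 to 0.14 on the log2 scale, so a small rise or fall shared by many genes is relative to that choice.

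**Figure D1:**
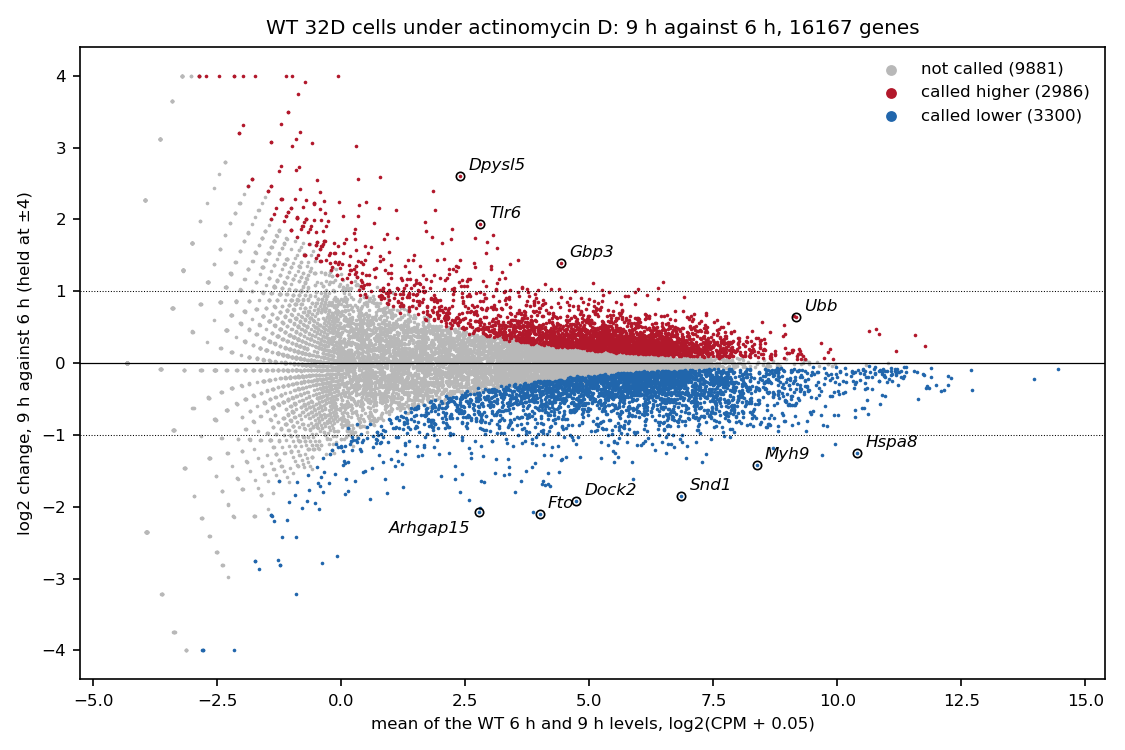
Log2 change at 9 h against 6 h in WT (vertical axis, held at ±4) against the mean level of the 4 libraries as log2(CPM + 0.05) (horizontal axis), 1 point per gene tested, with 2-fold marked by dotted lines. The 2986 genes called higher and 3300 called lower lie close to the zero line at high levels, and most changes past 2-fold belong to genes of low level; circles mark genes named in the text.

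The falls of 2-fold or more held a larger share of long genes, a feature that the comparison did not use. The 219 genes had a median span (first exon start to last exon end) of 51102 bp, against 14989 bp for all tested genes and 12480 bp for the 293 genes that rose at least 2-fold. Over all calls the medians were close, 20626 bp for the 3300 genes called lower and 19246 bp for the 2986 called higher. Genes spanning over 200 kb made up 58 of the 219 (26.5%), 5 of the 293 (1.71%) and 2.46% of all tested genes. As many of the 219 genes, 58, spanned under 5 kb, a class of 4251 tested genes that also gave 85 of the 293. Length was thus not shared by all the falls. These shares are descriptions with no test.

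The 12 falls that the naming rule gave, from called genes averaging 5 CPM or more whose libraries did not overlap, ranged from −2.11 to −1.68 on the log2 scale, and 10 of the 12 genes spanned over 200 kb. Snd1, a Tudor-domain protein that binds RNA (chr6:28475138-28935161, GRCm39, a span of 460024 bp), stood at 361 and 350 CPM at 0 h, 377 and 382 at 3 h, 181 and 182 at 6 h and 47.7 and 52.3 at 9 h. Its level was thus held for the first 3 h and then fell in each later interval, and the 6 h and 9 h libraries were far apart (−1.86, SE 0.04, adjusted p = 2.4138e-64). Fto, which removes N6-methyl groups from adenosine in RNA (chr8:92040153-92395067), went from 93.6 and 88.8 CPM at 0 h to 27.0 and 24.7 at 6 h and 5.53 and 6.44 at 9 h (−2.11, SE 0.11).

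The same late loss was seen in genes of different function. Bckdhb, a subunit of the enzyme that breaks down branched-chain keto acids (chr9:83807198-84006293), was at 58.6 and 60.0 CPM at 0 h and 55.8 and 63.3 at 3 h. It then fell to 22.3 and 24.8 CPM at 6 h and 6.12 and 5.05 at 9 h (−2.08, SE 0.12). Gmds, the first enzyme of GDP-fucose synthesis (chr13:32003562-32522723), rose from 37.8 and 40.9 CPM at 0 h to 50.1 and 48.1 at 3 h and was at 24 and 26.5 at 6 h and 7.46 and 8.18 at 9 h (−1.69, SE 0.11). Both genes therefore kept or raised their share of RNA early and lost it late, with no overlap between the 6 h and 9 h libraries.

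Other long genes fell in all 3 intervals. Dock2, which activates the GTPase Rac in blood cells (chr11:34176815-34674719), went from 285 and 287 CPM at 0 h to 138 and 143 at 3 h, 43.0 and 40.6 at 6 h and 11.7 and 10.3 at 9 h (−1.93 in the last interval, SE 0.08). Arhgap15, which switches Rac off and is the longest of the 12 at 647130 bp, ended at 2.27 and 2.90 CPM from 10.4 and 11.4 at 6 h (−2.08, SE 0.16). Also among the 12 were Pola1, the catalytic subunit of DNA polymerase alpha (−1.68, SE 0.11), the actin nucleator Diaph3 (−1.90, SE 0.18), Chchd6 of the mitochondrial cristae (−2.01, SE 0.17), the centrosome protein Cntln (−1.80, SE 0.12) and Bcas3 (−1.80, SE 0.19). Dph6, an enzyme of diphthamide synthesis on translation factor eEF2, was the shortest, at 138549 bp (−1.71, SE 0.10). All 12 were also called lower over the same hours in KO1 and in KO2, where falls were called for 19.9% and 21.5% of genes. Their changes ran from −2.47 to −1.39 in KO1 and from −2.10 to −1.36 in KO2, and these windows share no library with WT.

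**Figure D2:**
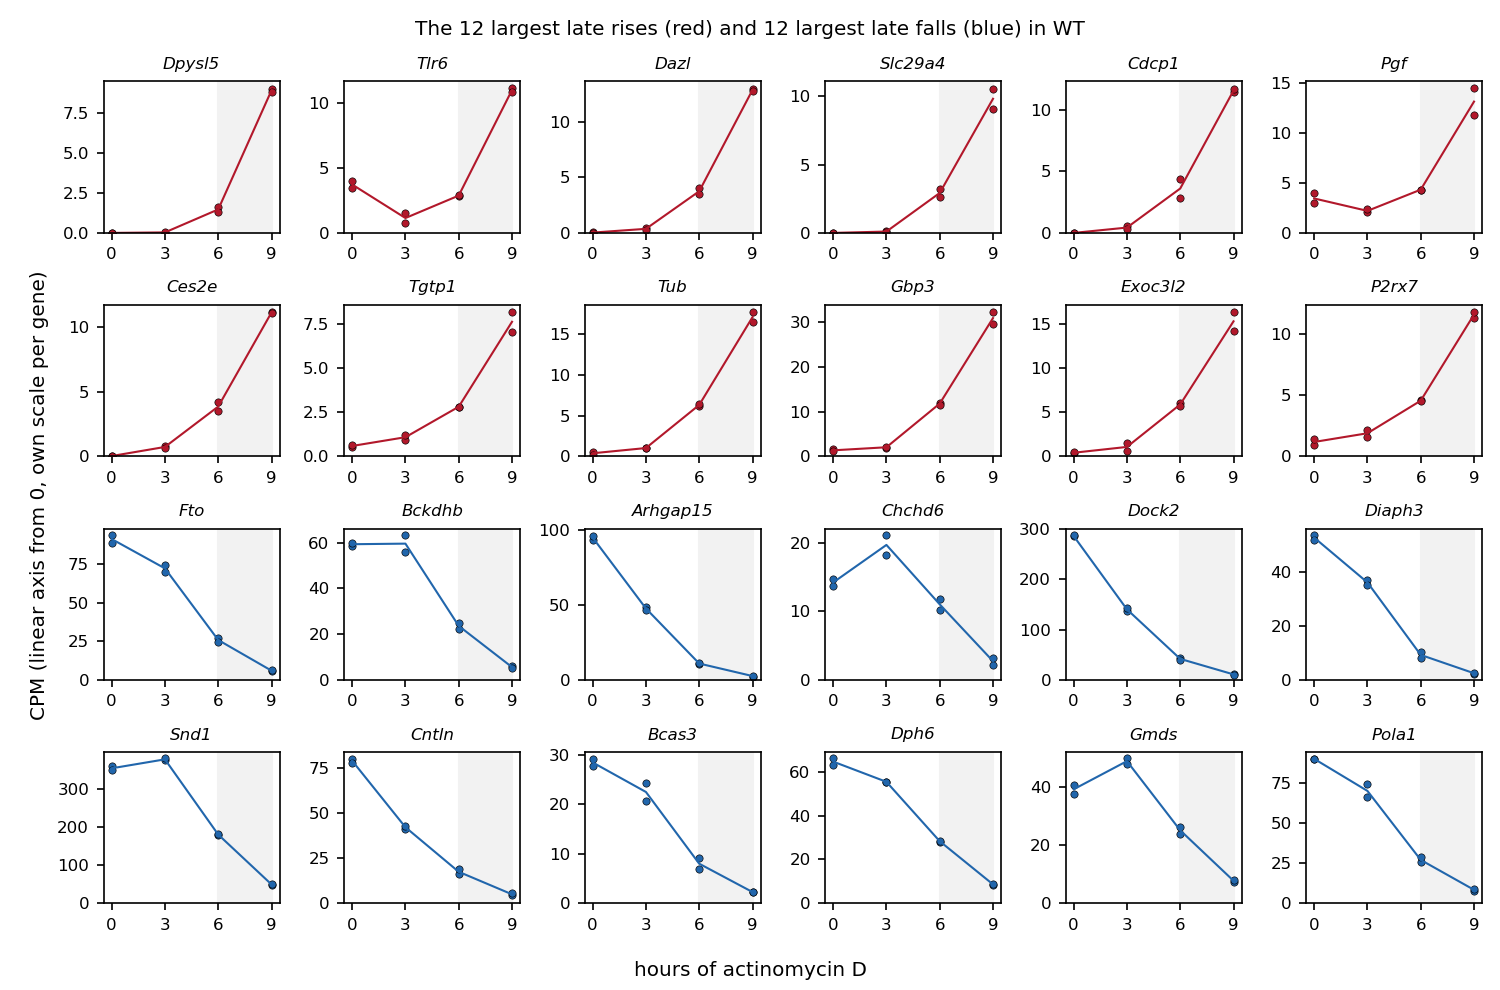
Level in CPM (vertical axes, linear from 0, own scale for each gene) over hours of actinomycin D (horizontal axes) in WT for the 12 largest late rises (red) and 12 largest late falls (blue) under the naming rule; points are single libraries, lines join the means of 2, and the 6 h to 9 h window is shaded. Most of the rises, such as Dpysl5 and Slc29a4, start near 0, while Snd1, Bckdhb and Gmds hold their level to 3 h before falling.

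Over all tested genes the late medians differed from 0 mainly at the long end. In the 397 genes spanning over 200 kb the median late change was −0.30, with 39.5% called lower and 6.55% called higher. The 902 genes of 100 to 200 kb had a median of −0.06 and 26.5% called lower, and the 3757 genes of 20 to 50 kb had a median of 0.05. Genes under 5 kb, at 1.71 CPM in the median, had a median change of −0.02. Earlier in the course the gradient was steeper: from 0 h to 3 h the median ran from 0.62 under 5 kb to −1.33 over 200 kb. Of the genes over 200 kb, 197 had a mean level of 5 CPM or more, and there the late median was −0.42. For all 397 it was −0.25 in KO1 and −0.34 in KO2.

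**Figure D3:**
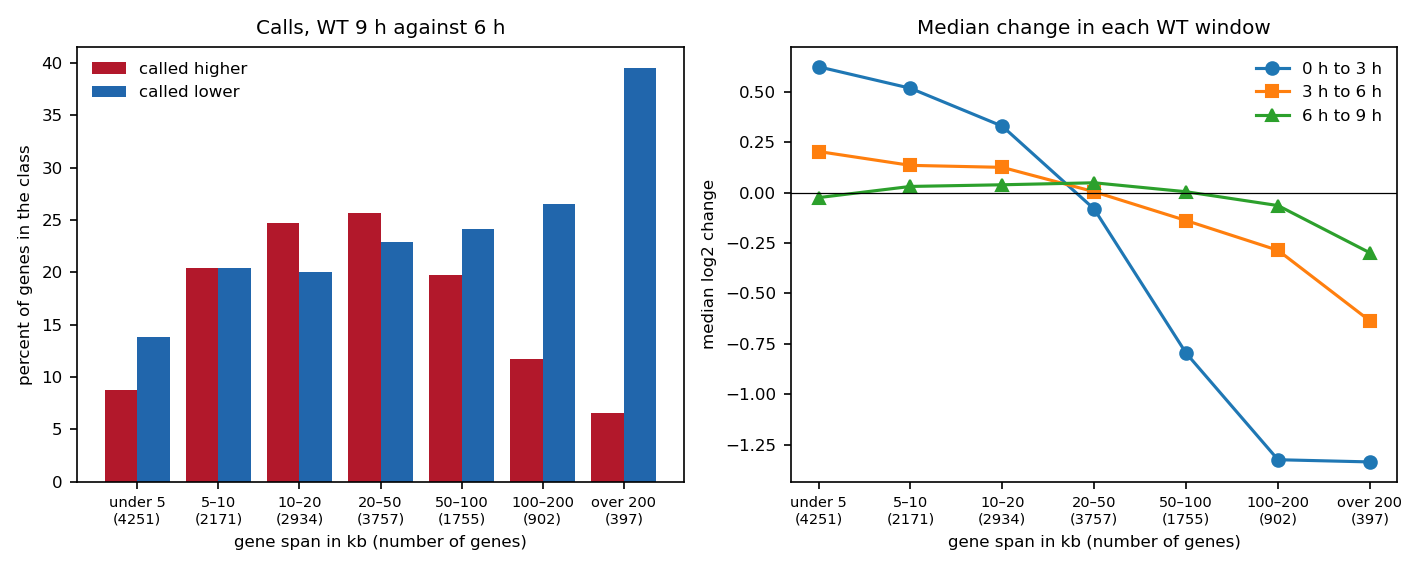
Left, percent of genes called higher (red) and lower (blue) at 9 h against 6 h in WT by gene span in kb; right, median log2 change in each WT interval for the same span classes, with the number of genes under each class. Genes over 200 kb were called lower in 39.5% of cases from 6 h to 9 h, and their median fell in each interval.

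Messages for the machinery that folds and degrades proteins lost ground together. Of 14 genes for the CCT chaperonin, the ring that folds actin and tubulin, and for its partner prefoldin, 10 were called lower and 1 higher (Pfdn6, a call lost without replicate 1 of 6 h or of 9 h), and the list's median change was −0.53 beside 0.01 for all genes. Cct3 was at 329 and 330 CPM at 6 h and 186 and 192 at 9 h (−0.80, SE 0.03), and Cct7 at 394 and 378 against 237 and 235 (−0.71, SE 0.03). Pfdn1 fell from 49.0 and 50.2 to 26.7 and 26.2 CPM (−0.91, SE 0.07). Each of these groups was well separated between times. From 3 h to 6 h, an interval that shares the 6 h libraries, the list's median had been −0.53. Of 30 genes for tubulin, actin and other cytoskeleton proteins, 24 were called lower, with a median of −0.38. Myh9, the heavy chain of non-muscle myosin II, fell from 485 and 480 to 180 and 179 CPM (−1.43, SE 0.02), the actin bundler Lcp1 from 1358 and 1343 to 622 and 613 (−1.13, SE 0.02) and cytoplasmic actin Actg1 from 864 and 866 to 454 and 448 (−0.94, SE 0.02).

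Of 37 genes on the proteasome list, 32 were called lower and 1 higher, with a median of −0.40 (−0.43 from 3 h to 6 h). Psmb7, a catalytic subunit, fell from 65.8 and 59.2 to 25.1 and 28.4 CPM (−1.22, SE 0.06), and the regulatory subunits Psmd1 (−1.17, SE 0.04) and Psmd14 (−1.05, SE 0.06) also changed over 2-fold. The member that rose, Nfe2l1, is no subunit: it encodes the transcription factor known to drive proteasome genes, and it was at 173 and 176 CPM at 6 h and 194 and 204 at 9 h (0.19, SE 0.03, adjusted p = 0.324 with spike-in totals as the scale). Among 24 cytosolic heat-shock genes, 15 were called lower and 5 higher (median −0.35). Hspa8, the constitutive Hsp70, fell from 1889 and 1918 to 815 and 785 CPM (−1.25, SE 0.02, adjusted p = 1.1785e-84), after a rise of 1.90 from 0 h to 3 h. Ubb, a polyubiquitin gene on that list and not a chaperone, went the other way and rose from 459 and 436 to 721 and 678 CPM (0.64, SE 0.03).

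Chaperones of the endoplasmic reticulum fell in 19 of 27 cases and rose in 3 (median −0.28). Manf, a secreted stress-response protein, fell from 154 and 149 to 94.6 and 99.4 CPM (−0.64, SE 0.04) and Hyou1, a large Hsp70 relative, from 278 and 282 to 195 and 200 (−0.50, SE 0.03). Against them Dnajb9, a co-chaperone of BiP, rose from 125 and 126 to 194 and 204 CPM (0.66, SE 0.04), and Herpud1, of the pathway that removes misfolded proteins, from 78.8 and 83.2 to 106 and 107 (0.39, SE 0.04). The list was thus split, with most members falling.

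Protein synthesis genes other than those of the ribosome also fell. Their list medians had been lower still from 3 h to 6 h, −0.74 for synthetases and −0.55 for translation factors. Among 21 aminoacyl-tRNA synthetases, which load amino acids onto tRNA, 15 were called lower and 1 higher (median −0.44). Eprs fell from 181 and 173 to 70.3 and 70.8 CPM (−1.33, SE 0.04) and Lars from 129 and 132 to 53.8 and 56.4 (−1.25, SE 0.04), both past 2-fold. Cars, the exception, was at 22.3 and 21.9 CPM at 6 h and 28.5 and 28.3 at 9 h (0.36, SE 0.08, adjusted p = 0.071 with spike-in totals). From 0 h to 3 h 14 of the 21 had been called lower and 6 higher, when falls were called for 33.5% of all genes. Of 52 translation factors 40 were called lower and 4 higher (1 or 2 higher without any 1 of the 4 WT libraries; median −0.23), led by the scaffold Eif4g3, from 50.1 and 52.7 to 23.3 and 24.8 CPM (−1.09, SE 0.07), with Eif3b at −0.75 (SE 0.03) and Eif1ax at −0.77 (SE 0.03).

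Energy metabolism fell on both the nuclear and the mitochondrial side. From 3 h to 6 h the medians had been −0.02 for nuclear-encoded respiratory chain genes and 0.18 for mRNAs of the mitochondrial genome. Of 75 nuclear-encoded respiratory chain genes 63 were called lower and 1 higher (median −0.31), and 72 of the 75 had been called higher from 0 h to 3 h, when rises were called for 38.6% of genes. Ndufs4 and Ndufs8 of complex I changed by −1.0 (SE 0.09) and −0.73 (SE 0.06), and Atp5c1 of ATP synthase went from 215 and 202 to 119 and 117 CPM (−0.82, SE 0.04). Of the 13 mRNAs made from the mitochondrial genome, which has its own polymerase, 7 were called lower (median −0.32). The complex I subunits mt-Nd1 (4913 and 4985 to 3750 and 3778 CPM, −0.40, SE 0.01) and mt-Nd2 (2269 and 2321 to 1659 and 1678 CPM, −0.46, SE 0.02) were the steepest with mt-Nd6 (−0.39, SE 0.02). Glycolysis had 17 of 25 genes lower and 2 higher (median −0.19), and lactate dehydrogenase Ldha fell from 1919 and 1949 to 1180 and 1193 CPM (−0.71, SE 0.02).

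Cytosolic ribosomal protein genes moved little, and their fall was not seen with library totals. With TMM 71 of 82 were called lower and 1 higher, with a median of −0.13. With library totals alone 21 were lower and 19 higher (median −0.003). With spike-in totals only 1 was called lower and 0 higher, but the median stayed negative at −0.14. Rpl7a went from 1665 and 1649 to 1363 and 1367 CPM (−0.28, SE 0.02, adjusted p = 0.059 with spike-in totals). The widest change was in Rps27l, a ribosomal protein copy known to be induced by p53, from 299 and 288 to 213 and 214 CPM (−0.46, SE 0.03). Ribosome assembly factors (47 of 88 lower, 13 higher, median −0.15), SR and splicing factors (29 of 52 lower, 10 higher, median −0.12) and mitochondrial ribosomal proteins (31 of 77 lower, 6 higher, median −0.13) were in the same range. With library totals the medians of these 3 lists were −0.03, 0.01 and −0.00, so no direction is given for them. With library totals the medians of the lists for folding, cytoskeleton, proteasome, synthetases, translation factors and energy stayed negative, from −0.40 for the CCT and prefoldin list to −0.07 for glycolysis. With spike-in totals the falls were 36 of 75 in the respiratory chain, 19 of 52 in translation factors, 11 of 27 in chaperones of the endoplasmic reticulum and 8 of 25 in glycolysis. Genes of the ribosomal protein family have many processed copies that can share or lose reads.

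**Figure D4:**
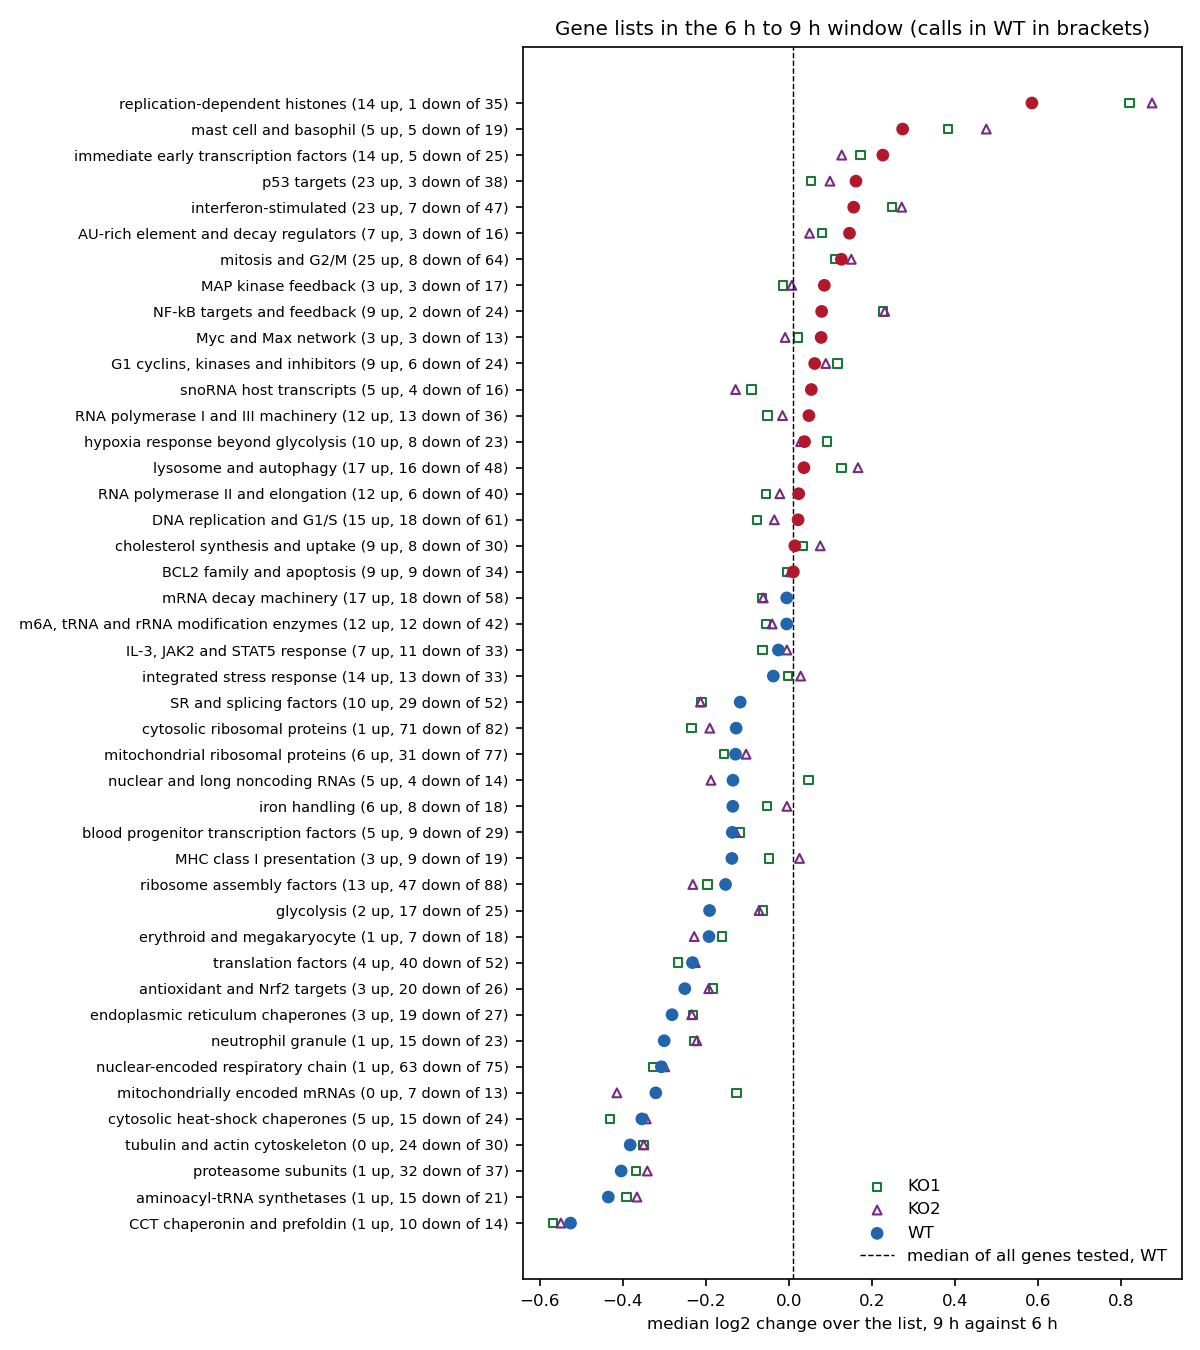
Median log2 change at 9 h against 6 h (horizontal axis) for the gene lists with 12 or more tested members (rows, with WT calls in brackets), in WT (filled), KO1 (squares) and KO2 (triangles); the dashed line is the median of all genes in WT. Histones lie highest and the CCT and prefoldin list lowest; with library totals in place of TMM the median of all genes is 0.14, and lists near the line can change sides.

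Among the rises of 2-fold or more, most transcripts had been scarce before the drug. Of these 293 genes, 225 were under 1 CPM in both 0 h libraries and 66 had no count there. Their median level was 0.21 CPM at 0 h, 0.63 at 6 h and 1.74 at 9 h. Only 47 of them had a mean of at least 5 CPM at 6 h and 9 h, against 108 of the 219 falls. Of the 293, 159 were called higher in KO1 and 170 in KO2, where rises were called for 19.8% and 20% of genes. From 0 h to 3 h 76 had been called higher, 51 lower and 166 not called. Over all genes rises were called for 38.6% and falls for 33.5% in that interval.

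The 12 named rises with the largest change ranged from 1.35 to 2.60. Dpysl5, best known from neurons (chr5:30868908-30956719), had no count at 0 h, 0 and 0.06 CPM at 3 h, 1.6 and 1.34 at 6 h and 9.03 and 8.82 at 9 h (2.60, SE 0.22, adjusted p = 1.5358e-18). Dazl, an RNA-binding protein of germ cells (chr17:50586423-50600664), was at 0.06 and 0 CPM at 0 h, 4.03 and 3.47 at 6 h and 13 and 12.8 at 9 h (1.78, SE 0.18). Both were next to silent in untreated cells and kept rising, with the 6 h and 9 h libraries apart.

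The monoamine transporter Slc29a4 (2.63 and 3.23 to 9.09 and 10.6 CPM, 1.74, SE 0.19), the surface protein Cdcp1 (4.42 and 2.80 to 11.4 and 11.7 CPM, 1.68, SE 0.18) and the carboxylesterase Ces2e (4.16 and 3.53 to 11.1 and 11.1 CPM, 1.53, SE 0.18) had the same course. Of the 12, 8 were under 1 CPM at 0 h. The ATP-gated channel P2rx7 (4.61 and 4.51 to 11.4 and 11.8 CPM, 1.35, SE 0.17) and Tub (6.15 and 6.45 to 17.7 and 16.4 CPM, 1.43, SE 0.14) started a little higher or rose more slowly. All 12 were called higher in both clones over these hours, with changes from 1.05 to 1.93 in KO1 and from 1.20 to 2.14 in KO2.

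Targets of p53 rose more often than they fell: 23 of 38 were called higher and 3 lower, with a median of 0.16. In KO1 15 of the 38 were called higher and 7 lower (median 0.05), and in KO2 19 and 9 (median 0.10). In WT the rises dropped to 6 with spike-in totals, and the falls were 7 without replicate 2 of 6 h. The TNF receptor family genes Tnfrsf26 (37.3 and 35.1 to 70.9 and 67.1 CPM, 0.93, SE 0.07) and Tnfrsf10b (12.5 and 10.4 to 18.8 and 19.1 CPM, 0.73, SE 0.12) were the widest rises on the list. Pmaip1, which encodes the death promoter Noxa, rose from 281 and 289 to 420 and 429 CPM (0.58, SE 0.03), after a gain of 2.36 from 0 h to 3 h. The effectors Bax (121 and 116 to 92.3 and 92.8 CPM, −0.36, SE 0.04) and Bak1 (84.2 and 86.7 to 57.6 and 58.4 CPM, −0.56, SE 0.05) fell, and the BCL2 family list as a whole had 9 rises and 9 falls among 34 genes, or 15 and 5 with library totals. The activator Bcl2l11 (Bim) rose from 96.6 and 93.2 to 121 and 122 CPM (0.36, SE 0.05).

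Interferon-stimulated genes were called higher in 23 of 47 cases and lower in 7 (median 0.16), and called higher in 24 and lower in 4 cases in KO1 and in 29 and 3 in KO2. With spike-in totals the WT counts were 13 and 1, and with library totals 28 and 3. The guanylate-binding proteins, GTPases that act on intracellular pathogens, led. Gbp3 (chr3:142265787-142278970) was at 1.6 and 1.12 CPM at 0 h, 12 and 11.6 at 6 h and 32.3 and 29.5 at 9 h (1.39, SE 0.10). Gbp7 rose from 50.5 and 46.7 to 90.6 and 97.1 CPM (0.95, adjusted p = 8.54e-32), and Gbp2 from 1.54 and 1.04 to 5.36 and 4.64 CPM (1.96, SE 0.28). The related GTPase Tgtp1 rose from 2.82 and 2.80 to 7.05 and 8.18 CPM (1.44, SE 0.19), and the ubiquitin-like Isg15 from 8.13 and 7.37 to 14.2 and 12.4 CPM (0.78, adjusted p = 3.68e-08). The sensor Dhx58 fell from 9.99 and 12.4 to 6.41 and 6.04 CPM (−0.85, SE 0.14), so the family did not move as one. Reads can be shared among near-identical members of the Gbp, Oas, Mx and Ifit families.

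The promoters of Gbp7, Gbp3, Gbp2 and Isg15 are printed because these genes rose together and because the first 3 are neighbours. The windows are from RefSeq on GRCm38.p6, 300 bases each in the direction of the gene, and capitals mark matches to GAAANNGAAA, the core of the interferon-stimulated response element, on either strand, where overlapping matches run together.
Gbp7 (chr3:142530086-142530385, + strand): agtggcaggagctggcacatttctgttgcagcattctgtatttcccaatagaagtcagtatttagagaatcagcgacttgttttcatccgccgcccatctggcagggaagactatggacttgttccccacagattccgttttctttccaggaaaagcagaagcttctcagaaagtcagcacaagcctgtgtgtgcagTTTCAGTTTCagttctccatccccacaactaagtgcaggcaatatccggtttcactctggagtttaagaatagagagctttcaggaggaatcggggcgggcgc
Gbp3 (chr3:142559794-142560093, + strand): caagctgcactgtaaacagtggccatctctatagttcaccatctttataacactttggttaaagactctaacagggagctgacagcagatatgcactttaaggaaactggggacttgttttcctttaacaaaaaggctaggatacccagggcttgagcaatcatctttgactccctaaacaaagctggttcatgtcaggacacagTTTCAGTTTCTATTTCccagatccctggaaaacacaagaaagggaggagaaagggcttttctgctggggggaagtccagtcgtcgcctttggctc
Gbp2 (chr3:142620413-142620712, + strand): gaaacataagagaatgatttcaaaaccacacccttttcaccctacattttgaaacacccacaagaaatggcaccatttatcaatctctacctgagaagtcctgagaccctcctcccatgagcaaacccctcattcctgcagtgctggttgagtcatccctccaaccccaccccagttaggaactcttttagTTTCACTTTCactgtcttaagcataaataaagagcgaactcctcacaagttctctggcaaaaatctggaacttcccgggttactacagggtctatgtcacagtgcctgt
Isg15 (chr4:156200769-156201068, − strand): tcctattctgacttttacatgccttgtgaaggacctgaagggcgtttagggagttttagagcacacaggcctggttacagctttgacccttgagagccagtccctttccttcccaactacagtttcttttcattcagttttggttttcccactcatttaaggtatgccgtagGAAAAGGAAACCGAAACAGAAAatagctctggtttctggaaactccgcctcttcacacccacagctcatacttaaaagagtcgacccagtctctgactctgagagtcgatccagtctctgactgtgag
A promoter was matched for 35 of the 47 list members, and 17 of these held a match, against 3.49% of all 27025 promoters in the table. By call, matches stood in 10 of 18 members called higher, 2 of 5 called lower and 5 of 12 not called. The match is a description of these letters and not a measured binding site.

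Replication-dependent histones had the highest median of the lists with 12 or more members, 0.59, with 14 of 35 called higher and 1 lower. Their median had been 1.46 from 3 h to 6 h. The rises were 8 without replicate 1 of 9 h and 9 without replicate 2 of 6 h. Their normal messages end in a stem-loop with no poly(A) tail, so a library of polyadenylated RNA reads only copies with a tail. Hist1h4i rose from 15.2 and 14.4 to 29.2 and 27.1 CPM (0.93, adjusted p = 1.47e-11), Hist1h3i from 5.0 and 4.26 to 11.8 and 11.3 CPM (1.32, SE 0.19) and Hist1h2bh from 5.0 and 4.69 to 10.8 and 9.64 CPM (1.08, adjusted p = 7.01e-07). Hist1h2bm rose from 0.96 and 0.79 to 2.39 and 1.97 CPM (1.31, SE 0.46), a call lost without a 6 h library or without replicate 1 of 9 h (adjusted p from 0.051 to 0.115). The member that fell, linker histone Hist1h1c, was at 47 and 42.0 CPM at 6 h and 32.0 and 37.8 at 9 h (−0.35, SE 0.07). Histone genes of a class are near copies of each other, and reads may be shared among them.

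The stem-loop itself is shown for histones that rose, to place it in the annotated transcript. A pair of complementary 6-base arms starting with GG around the loop TTTC was searched in the GENCODE M21 transcripts (GRCm38). Only sites with at least 5 more transcript bases after them were kept, so annotated transcripts that end at the stem-loop were left out. Such a site was held by 18 of the 35 members, 6 of them called higher, beside 14 called higher among all 35. Hist1h1c, which was called lower, held it too. Capitals mark the stem-loop.
Hist1h2bh (chr13:23542923-23542948, − strand): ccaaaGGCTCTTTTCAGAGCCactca
Hist1h2be (chr13:23585526-23585551, − strand): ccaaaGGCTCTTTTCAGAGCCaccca
Hist1h3d (chr13:23576239-23576264, + strand): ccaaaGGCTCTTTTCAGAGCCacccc
Hist1h2ac (chr13:23683472-23683497, − strand): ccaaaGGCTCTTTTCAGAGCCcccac
Hist1h4h (chr13:23531453-23531478, + strand): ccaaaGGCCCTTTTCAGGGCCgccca
These annotated transcripts run on for 1214 bases past the stem-loop in Hist1h2bh, 1861 in Hist1h2be, 752 in Hist1h3d, 2010 in Hist1h2ac and 46 in Hist1h4h. Hist1h2be rose from 17.9 and 18.6 to 26.5 and 28.8 CPM (0.60), Hist1h3d from 9.80 and 9.80 to 15.4 and 14.5 (0.61), Hist1h2ac from 1.73 and 1.46 to 2.91 and 3.08 (0.91) and Hist1h4h from 2.24 and 1.40 to 3.67 and 3.42 (0.96). The counts are per gene and do not say where the reads lie.

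Genes of mitosis and G2/M rose in 25 of 64 cases and fell in 8 (median 0.13), or 3 and 3 with spike-in totals. Of the 64, 41 had been called lower and 14 higher from 0 h to 3 h. Over all genes falls were called for 33.5% and rises for 38.6% in that earlier interval. The microtubule protein Ckap2 rose from 79.5 and 75.8 to 114 and 114 CPM (0.55, SE 0.05) and separase Espl1 from 69.2 and 70.3 to 93.7 and 87.1 (0.37, SE 0.06), while Top2a, which untangles DNA, fell from 167 and 168 to 130 and 135 (−0.34, SE 0.03). Immediate early transcription factors had 14 of 25 higher and 5 lower (median 0.23), or 6 higher with spike-in totals, among them Nr4a3, from 5.06 and 2.98 to 7.46 and 8.13 CPM (0.96, SE 0.20). Of 33 integrated stress response genes 14 rose and 13 fell, and the 3 that changed at least 2-fold rose: Nupr1 (1.13), Atf3 (1.92 and 2.07 to 4.60 and 3.71 CPM, 1.06) and Cbs (1.02 and 0.67 to 2.21 and 1.39 CPM, 1.09). Phgdh, the first enzyme of serine synthesis, fell from 600.4 and 578 to 307 and 305 CPM (−0.94, SE 0.02), and the list median was −0.04, or 0.09 with library totals.

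Markers of blood cell maturation did not move in 1 direction. Neutrophil granule genes were lower in 15 of 23 cases and higher in 1 (median −0.30), and 8 were lower with spike-in totals. Serpinb1a, an inhibitor of neutrophil proteases, fell from 49.2 and 45.2 to 27.1 and 25.7 CPM (−0.84, SE 0.07), while lactoferrin (Ltf) rose from 4.10 and 3.78 to 7.92 and 7.14 (0.94, SE 0.23). Of 9 macrophage and monocyte genes 5 rose and 2 fell: the receptor Csf1r went from 8.65 and 7.49 to 17.9 and 15.6 CPM (1.05, SE 0.13) and Cd14 from 39.3 and 39.6 to 62.9 and 60.0 (0.64, SE 0.07), but Adgre1 (F4/80) fell from 84.3 and 81.7 to 55.1 and 58.0 (−0.55, SE 0.07). Nrf2 and antioxidant genes fell in 20 of 26 cases (9 with spike-in totals) and rose in 3, with the glutathione enzyme Gclm from 121 and 116 to 60.8 and 64.1 CPM (−0.92, SE 0.05) and heme oxygenase Hmox1 rising from 312 and 307 to 385 and 381 (0.31, SE 0.03).

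Several lists were near the median of all genes, and their balance of rises and falls was that of the TMM scale. The mRNA decay machinery had 17 rises and 18 falls among 58 genes (median −0.01): the deadenylase Parn fell from 17.6 and 17 to 9.55 and 8.36 CPM (−0.95, SE 0.11) and the exosome subunit Exosc5 from 46.8 and 43.8 to 24.2 and 22.8 (−0.95, SE 0.07), while the antiproliferative adaptor Tob2 rose from 83.1 and 85.0 to 112 and 111 (0.41, SE 0.05). With library totals this list had 25 rises and 10 falls, and with spike-in totals 1 and 9. RNA and tRNA modification enzymes had 12 rises and 12 falls among 42, 20 and 8 with library totals and 1 and 6 with spike-in totals. Without replicate 2 of 6 h or replicate 1 of 9 h their rises were 6. DNA replication genes had 15 and 18 among 61, or 25 and 14 with library totals and 3 and 12 with spike-in totals. Genes of the IL-3, JAK2 and STAT5 response had 7 and 11 among 33, and cholesterol synthesis genes 9 and 8 among 30. With library totals these were 14 and 10, and 15 and 4, and with spike-in totals 3 and 6, and 3 and 4.

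Late changes were compared with the first 3 h, which share no library with them. The late and the early change of a gene differed in 10771 of 16167 genes (66.6%). Of these, 44.9% had the higher change late with TMM, against 55.2% with library totals and 67.9% with spike-in totals. Among genes called in both intervals, 1786 had risen early and fell late and 1254 had fallen early and rose late. Another 1065 fell in both intervals and 1111 rose in both. Late falls were called for 28.6% of the early rises and 19.6% of the early falls, beside 20.4% of all genes. Late rises were called for 23.1% of the early falls and 17.8% of the early rises, beside 18.5% of all genes. The genes that fell in both had a median span of 57678 bp and ended at a median of −1.88 against 0 h, those that rose early and fell late spanned 11394 bp.

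Some genes whose level had dropped by 3 h rose late. Nupr1, a stress-induced chromatin protein, was at 39.3 and 39.9 CPM at 0 h, 1.78 and 2.05 at 3 h, 2.75 and 3.65 at 6 h and 6.82 and 7.31 at 9 h. Its late change was 1.13 (SE 0.18), and the difference from its early change was 5.50, among the 4 largest of that sign. Arid5b (60.4 and 61.9 CPM at 0 h, 3.01 and 2.95 at 3 h) went from 4.55 and 5.72 at 6 h to 8.68 and 8.88 at 9 h (0.77, SE 0.16). The receptor Tlr6, which senses bacterial lipopeptides, dipped to 0.75 and 1.54 CPM at 3 h and reached 11.1 and 10.9 at 9 h from 2.82 and 2.92 at 6 h (1.93, SE 0.18), above its 0 h level of 4.02 and 3.43.

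The growth factor Pgf had a like course, from 4.35 and 4.32 CPM at 6 h to 14.6 and 11.8 at 9 h (1.6, SE 0.16). At the other end, Mpig6b, a receptor of the megakaryocyte lineage, was at 0 and 0.18 CPM at 0 h, 13 and 12.4 at 3 h, 18.2 and 16.6 at 6 h and 10.7 and 13.2 at 9 h, so its early gain had turned to a fall (−0.54, SE 0.13). Kdelr3, a retrieval receptor for proteins of the endoplasmic reticulum, had no count at 0 h and stood at 12.4 and 12.8 CPM at 6 h and 13.8 and 14.9 at 9 h (0.19, SE 0.14, not called).

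The late window of each Nat10+/- clone was set against that of WT. Nat10, which acetylates cytidine in RNA, was itself at 76.1 and 75 CPM at 6 h and 62.2 and 65.9 at 9 h in WT (−0.24, SE 0.05). That call was lost with library totals (adjusted p = 0.078) and with spike-in totals (adjusted p = 0.170). In KO1 its mean went from 63.1 to 48.8 CPM and in KO2 from 57.2 to 47.2, so transcript was present in both clones. The clones' changes differed from the WT change in 707 genes for KO1 (4.37%) and 835 for KO2 (5.16%). The 2 tests share the WT libraries. Of the KO1 differences 67.2% were on the side of a higher change in the clone, and of the KO2 differences 63.7%. With library totals the shares were 55.0% and 46.3%, and for KO2 75.2% with DESeq2's size factors. Without replicate 2 of KO1 at 9 h the first count was 467, and without replicate 2 of WT at 9 h the second was 555. Spike-in totals gave 8536 and 4. The WT libraries held far fewer spike-in counts than the clones, 120 to 257 each, and the part of that gap in these values was not tested.

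Few of the differences were large: 24 genes for KO1 and 26 for KO2 reached 2-fold. Hist1h1c, the histone that fell in WT, rose in both clones, from a mean of 22.6 to 34.9 CPM in KO1 (difference 0.98, SE 0.11, adjusted p = 2.6928e-11) and from 19.3 to 26 in KO2 (0.78, adjusted p = 2.0725e-07). Myadm, a myeloid membrane protein, fell in WT from 30.1 and 29.8 to 15.5 and 16.6 CPM, against 12.4 and 12.1 in KO1 (difference 0.86, SE 0.15) and 8.61 and 9.07 in KO2 (0.98). Both genes had entered the window at lower levels in the clones. Psme2b (difference 1.03, SE 0.22) and Mblac2 (1.01, SE 0.23) were the other 2 named for KO1, and Psme2b is a near copy of another gene with which it may share reads.

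On the other side, Scamp5, of the membrane traffic family, fell from 115 and 123 to 92.7 and 91.0 CPM in WT and from a mean of 159 to 80.9 in KO1 (difference −0.61, SE 0.06) and 157 to 91.4 in KO2 (−0.41). Cebpb, a transcription factor of myeloid cells, was at 21.8 and 16.3 CPM at 6 h and 16.5 and 16.8 at 9 h in WT, against means of 20.5 and 10.4 in KO1 (difference −0.79, SE 0.17). For KO2, Hcar2, the receptor for niacin, rose in WT from 6.02 and 5.05 to 12.5 and 11.5 CPM and in the clone from a mean of 1.59 to 7.26 (difference 1.07), and Lamb2 differed by 1.03. Mx2, an interferon-induced GTPase, rose in WT from 0.32 and 0.43 to 2.10 and 1.04 CPM, but was at 20.8 and then 25.2 CPM in KO2 (difference −1.77). It met the minimum level of the naming rule only through KO2, and its WT change rests on few counts. Dhx58, which fell in WT, was at 31.7 and 33.8 CPM in KO2 (difference 0.94).

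**Figure D5:**
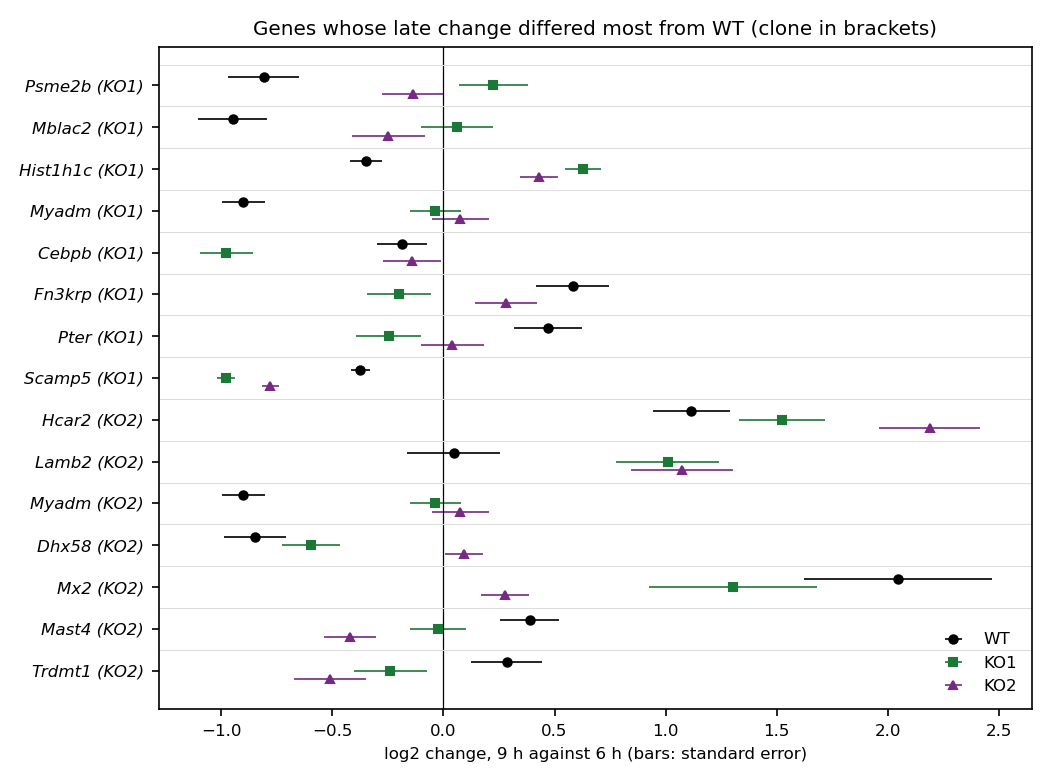
Log2 change at 9 h against 6 h (horizontal axis, bars are the standard error) in WT (circles), KO1 (squares) and KO2 (triangles) for the genes whose late change differed most between a clone and WT, with that clone in brackets. Hist1h1c and Myadm fell in WT, and their changes in the clones lie well to the right of it; Mx2 rose in WT with a wide error from few counts.

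By list, glycolysis differed in 1 direction: 10 of 25 genes had a higher change in KO1 than in WT and 9 of 25 in KO2. Its list medians were −0.06 and −0.07 in the clones against −0.19 in WT. Other lists leaned the same way. A higher change was called in KO1 and KO2 for 7 and 8 of 19 MHC class I presentation genes. The counts were 9 and 14 of 48 for lysosome and autophagy and 4 and 6 of 23 for neutrophil granule genes. A lower change was called in KO1 for 1 gene each of the MHC and lysosome lists. For glycolysis the counts were 9 and 8 with library totals. With spike-in totals they were 21 and 0, on a scale where 8527 of all 16167 genes had a higher change in KO1 and 4 in KO2. Cytosolic ribosomal proteins had a lower change than WT in 56 of 82 cases in KO1 and in 22 of 82 in KO2 (1 higher), with medians of −0.24 and −0.19 against −0.13 in WT. With spike-in totals 74 of the 82 had a higher change in KO1, so the direction for this list is that of the scale. Respiratory chain genes differed in 5 and 3 of 75 cases, close to the 4.37% and 5.16% of all genes.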

How the data were processed

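Polyadenylated RNA was measured in 24 libraries, grouped by their titles. The deposited values are raw counts for each gene (paired reads), made per the file headers with featureCounts 1.6.3 over exons without use of strand, so reads of overlapping and antisense genes cannot be told apart. STAR, DESeq2 and the build GRCm39 are named in the submitters' processing notes. Coordinates and spans come from the files, and names from GENCODE M21 (52081 of 55414 identifiers).

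ERCC entries were removed, and filterByExpr at a minimum count of 10 left 16167 genes. One edgeR 4.0.16 quasi-likelihood model (R 4.3.3, TMM scaling) held all 24 libraries with a coefficient for each of 12 groups, which pools the spread, since each group has 2 libraries. Adjusted p-values are Benjamini-Hochberg over all genes. Library totals, size factors, spike-in totals, DESeq2 1.42.0, filters, subsets, a replicate block and left-out libraries were alternatives. Tested on simulated data for 9 h against 6 h over 16167 genes, the model called 95 of 100 genes changed 2-fold and 76 of 100 changed 1.5-fold. It also called 4 unchanged genes. The changed genes averaged at least 1 CPM, and every gene was drawn with the same spread (coefficient of variation 0.0206). The 293 rises of 2-fold or more had a median of 0.63 CPM at 6 h, so this recovery does not cover genes at such levels.

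Named genes have an assigned symbol that is no clone or predicted name, a mean of at least 5 CPM, a call and libraries that do not overlap: the 12 largest rises and falls, the 4 largest each way per difference, the 5 largest in each turning class, and, with no CPM minimum, up to 3 members each way per list, with Nat10. A few genes the rule names are not reported here. Gbp7, Isg15, Hist1h4i, Hist1h2bh, Hist1h2be, Hist1h3d, Hist1h2ac, Hist1h4h and the markers were named after their values were seen. The comparison, the 47 gene lists and the rules were chosen with earlier results of these data known. Same-numbered libraries of WT at 6 h and 9 h did not deviate together (r = −0.0115 across genes; 0.152 in KO2), and the numbers were not used as pairs.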

Additional observations from a re-analysis of the deposited data

Results flagged for a closer look

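The change from 6 h to 9 h differed between a clone and WT, by the test of the difference in edgeR, in 707 genes for KO1 and 835 for KO2, and the late change differed from the early change of WT in 10771 genes. With KO1 the change was higher than in WT for Psme2b by 1.03, Mblac2 by 1.01, Hist1h1c by 0.98 and Myadm by 0.86 on the log2 scale, and the difference was −0.79 for Cebpb, −0.78 for Fn3krp, −0.72 for Pter and −0.61 for Scamp5. For KO2 it was 1.07 for Hcar2, 1.03 for Lamb2, 0.98 for Myadm and 0.94 for Dhx58, and −1.77 for Mx2, −0.81 for Mast4 and −0.79 for Trdmt1. The Mx2 value rests on few WT counts.

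Within WT, the late change exceeded the early change by 5.50 for Nupr1, 5.13 for Arid5b, 4.75 for Sipa1l3 and 4.70 for Il6. It was below the early change by a fitted −8.57 for Kdelr3, −7.58 for Mpig6b, −6.94 for Crip3 and −6.76 for Dhdh. These last 4 genes had at most 3 counts per library at 0 h, so their fitted values depend on the prior count of the model and are no bounds.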

How the results depend on the processing

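No named gene's call turned to the opposite direction under any alternative run, but many calls were lost. Named genes lost their call in 81 cases with spike-in totals, 15 with library totals and 10 with DESeq2. Some calls were also lost when 1 WT library was left out. The 6286 calls became 2787 with spike-in totals, of which 1044 were rises and 1743 falls. The cause was not tested. Library totals gave 4827 rises and 2187 falls, which follows from their shift of all changes. The 512 genes past 2-fold became 341 with DESeq2 and 156 when only genes at a mean of 5 CPM or more entered, where fewer genes of low level were tested. Spike-in totals turned the differences from WT into 8536 genes for KO1 and 4 for KO2 (the cause was not tested). Leaving out 1 library at a time gave 5238 to 5314 calls, 2359 to 2441 rises and 2843 to 2906 falls. Differences from WT were 467 to 541 for KO1 and 555 to 739 for KO2, and late against early differences 10228 to 10307. With the replicate block the calls were 6274 over 24 libraries and 6466 in the 4 WT libraries alone. Differences from WT were then 767 for KO1 and 872 for KO2. Same-numbered libraries of 6 h and 9 h did not deviate together in WT or KO1 (r = −0.0115 and −0.0172 across genes) and did so weakly in KO2 (r = 0.152). Testing all genes with no filter lost the call of 13 named genes. Rises from near 0 rest on few counts per library, which limits their precision.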
